A study of Danio rerio with 12 samples.

Results

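Sox and Klf proteins are 2 families of DNA-binding transcription factors, and their messenger RNA was followed here in cardiomyocytes of zebrafish embryos at 20 hours post fertilization (hpf) that lacked or overexpressed *hand2*. The members are the genes whose symbol in the deposited tables begins with sox or klf followed by a digit, without *sox7* and *sox18*. The match was to lower-case symbols, so that a row named SOX14 in capitals, with another identifier than *sox14* and no value over 13 in any library, was not a member. This rule gave 42 genes, 23 Sox and 19 Klf, of 21570 genes in the mutant experiment, and 41 of 21119 genes in the overexpression experiment, where *sox17* was not listed. In the mutant experiment, *hand2* FLD-/- embryos, homozygous for a full locus deletion of *hand2*, were compared with *hand2* FLD+/? embryos of the same crosses, which kept at least 1 copy of the gene. In the overexpression experiment, *hand2* OE embryos carrying Tg(myl7:hand2-p2a-EGFP), a transgene that expresses *hand2* in myocardial cells from the *myl7* promoter, were compared with their WT counterparts. In both experiments, myl7-reporter cells were collected by fluorescence-activated cell sorting, and each of the 4 groups had 3 libraries, 12 in all. The paper calls the 3 samples of each group biologically independent. The labels do not say whether the libraries of a group came from separate clutches or pools of embryos, so that the p values measure only the spread between these libraries.

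Sox factors carry an HMG domain that binds the minor groove of DNA and bends it, and they usually act together with a partner factor bound next to them. The groups used here, SoxB1, SoxB2, SoxC, SoxD, SoxE and SoxF, share sequence outside that domain as well. SoxB1 factors maintain neural progenitors, SoxC factors act in progenitors and differentiating cells of many tissues, SoxD factors have no activation domain of their own, and SoxE factors act in cartilage and neural crest. Klf factors bind GC-rich and CACCC sequences with zinc fingers. Some of them mostly activate transcription, others recruit the corepressor CtBP, and others recruit Sin3.

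The values are read counts per gene that the authors normalized by library and rounded. They summed to between 6728865 and 6965321 per library in the mutant experiment and to between 5322231 and 5425823 in the overexpression experiment, and the members took between 0.173% and 0.208% of them. A gene was tested where its mean over the 6 libraries of its experiment was at least 5, and it was called where the adjusted p (limma, Benjamini-Hochberg over all tested genes) was 0.05 or less and the fold change was over 1.5. As a check of the labels, *hand2* was at 2228, 2336 and 2380 in the *hand2* FLD+/? libraries and at 149, 427 and 45 in the *hand2* FLD-/- libraries. The mutant values were thus far lower, but neither absent nor even between libraries, and the source of the remaining reads was not tested. In the overexpression experiment, *hand2* was at 1671, 1667 and 1611 in WT and at 2159, 1939 and 2102 in *hand2* OE, a log2 fold change of 0.32 (SE 0.05, adjusted p = 0.00837 by limma). The means differed by 1.25-fold, under the threshold of 1.5, so that *hand2* itself was not called in *hand2* OE. The sorted cells of all libraries held the cardiomyocyte marker *myl7*, at 1627 or more. Replicate 2 of *hand2* OE stood apart from the other 2 *hand2* OE libraries, with summed levels of 2500 against 1589 and 1651 for 10 neural markers and of 5307 against 2453 and 3355 for 9 epidermal markers. In the mutant experiment, 10 epidermal markers summed to 5887 in replicate 2 of *hand2* FLD+/?, against 3427 and 3594 in the other 2 libraries of that group. In bulk samples, fewer cells of a type and less RNA per cell cannot be told apart.

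In *hand2* FLD-/- cardiomyocytes, 8 Sox and Klf genes rose and 6 fell. The genes that rose were *sox1a*, *sox2*, *sox11a*, *sox13*, *sox14*, *klf2a*, *klf3* and *klf15*, and those that fell were *sox4a*, *sox6*, *sox9b*, *sox12*, *sox21a* and *klf6a*. These 14 are 35.9% of the 39 members that passed the filter on low values, where 18.5% of all 17877 tested genes were called, 9.09% higher and 9.43% lower. Among the 21 tested Sox genes 10 were called, 5 in each direction, and among the 18 tested Klf genes 4 were called, 3 of them higher. The normalized counts of the 2 groups did not overlap for 21 of the 39 members, against 44.3% of all tested genes. An adjusted p of 0.05 or less, with no threshold on the fold, was reached by 16 members, against 29.6% of all tested genes. The median log2 fold change was 0.24 over the members and 0.00316 over all tested genes, and the median of its absolute value was 0.68 and 0.37. The members *klf1*, *sox8b* and *sox32* were below the filter, with no value over 15 in any library.

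**Figure D1:**
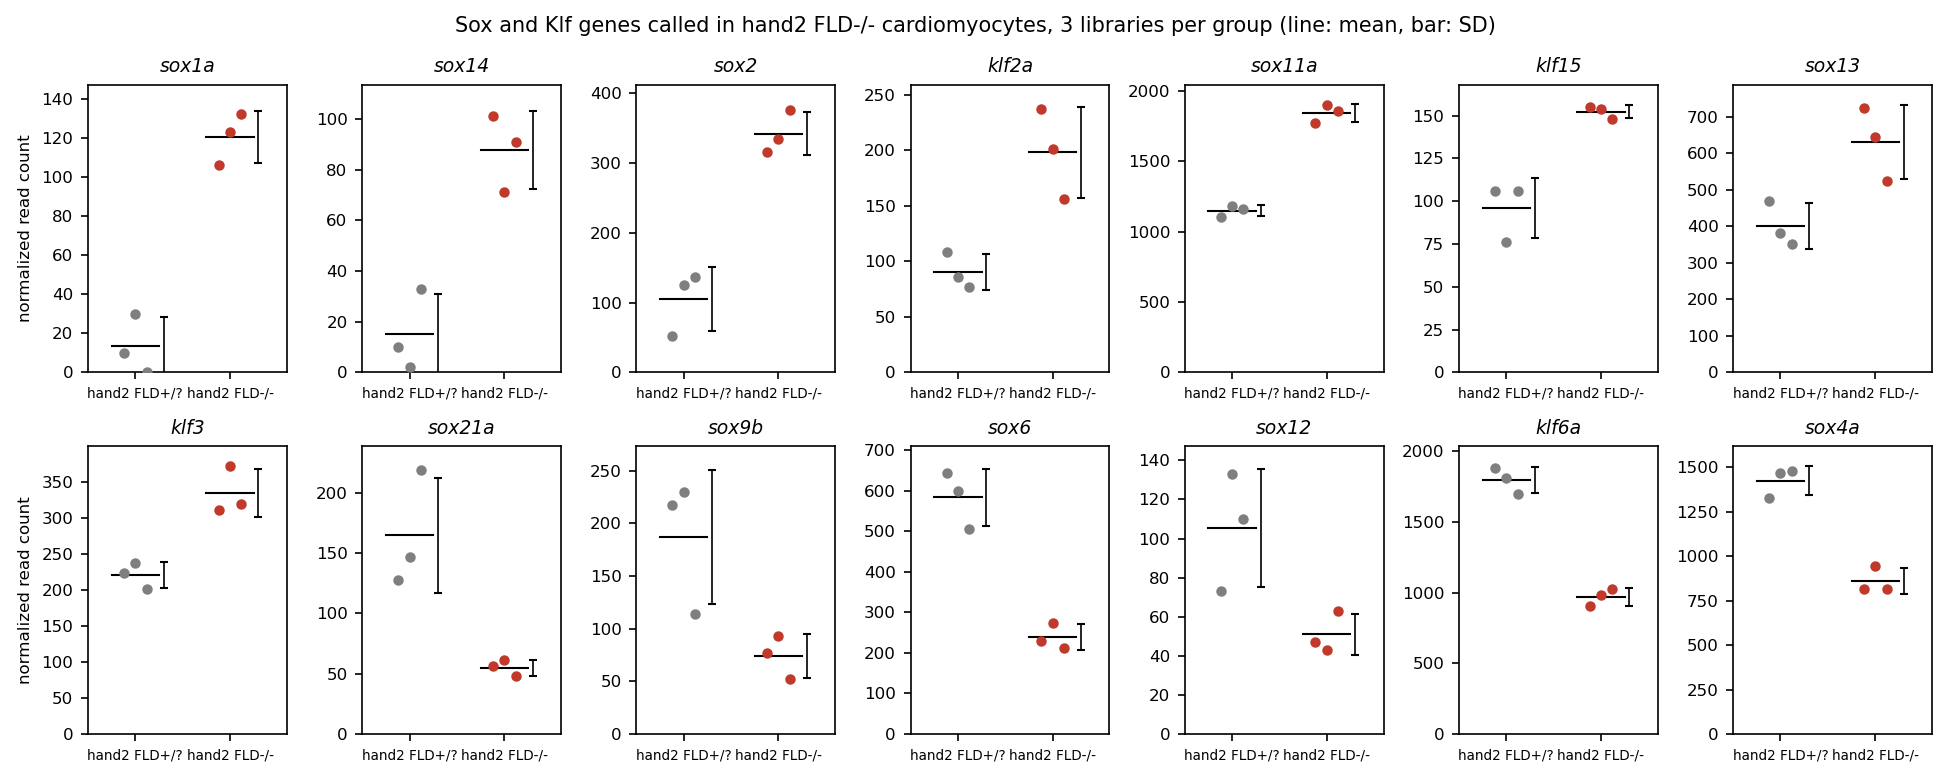
Normalized read count (vertical axis, linear from 0, its own scale in each panel) of the 14 Sox and Klf genes called in the mutant experiment, for *hand2* FLD+/? (grey) and *hand2* FLD-/- (red). Each point is 1 library, the line is the mean of 3 and the bar its SD. The 8 genes that rose come first, from *sox1a* to *klf3*, and the groups do not overlap in any of the 14 panels.

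Of the 6 SoxB1 genes, which act in neural progenitors, *sox1a* and *sox2* rose and none was called lower. The gene *sox2* (ENSDARG00000070913, chr22:37347896-37349967), a factor of pluripotent cells and neural progenitors, stood at 52, 125 and 137 in *hand2* FLD+/? and at 315, 334 and 376 in *hand2* FLD-/-. It rose by 1.81 on the log2 scale (SE 0.32, adjusted p = 0.0027 by limma), and the group means differed by 3.26-fold. The gene *sox1a* (ENSDARG00000069866, chr9:21722733-21724661), also a neural progenitor factor, stood at 10, 30 and 0 in *hand2* FLD+/? and at 106, 123 and 132 in *hand2* FLD-/-. Every mutant library was thus well above every control library, with means that differed by 9.03-fold and a log2 fold change of 4.11 (SE 1.04, adjusted p = 0.0158 by limma). Its log2 fold change lay between 2.71 and 5.19 when a library was left out, and the call was lost without replicate 3 of *hand2* FLD-/- (adjusted p = 0.0511). The other 4 SoxB1 genes were not called. Of these, *sox3* had the highest mean, with 493 ± 158 (SD, n = 3) in *hand2* FLD+/? and 440 ± 54 in *hand2* FLD-/- (log2 fold change -0.11, 95% confidence interval -0.62 to 0.40). The gene *sox19b* was near the threshold, at 61, 63 and 75 in *hand2* FLD+/? and at 18, 13 and 54 in *hand2* FLD-/- (log2 fold change -1.46, SE 0.50, adjusted p = 0.0562 by limma). Neural markers did not all move one way. The 10 of them, *sox2* among them, summed to between 2042 and 2716 in *hand2* FLD+/? and to between 1748 and 2213 in *hand2* FLD-/-. Of these 10, *ncam1a* and *sox2* were called higher and *elavl3* and *tubb5* lower, 7 had a log2 fold change above 0, and the median was 0.34. Most of the sum was *tubb5* and *elavl3*, and the other 8 markers summed to 332, 596 and 456 in *hand2* FLD+/? and to 850, 955 and 961 in *hand2* FLD-/-. These 8 still include *sox2*, whose own rise, given above, is a part of the difference between these sums. The part of neural cells in the rise of *sox2* and *sox1a* was not tested. The annotated transcript FP102167.1 lies over *sox2* on the same strand and was at a mean of 2 and 2.33 in the 2 groups.

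SoxB2 factors repress transcription and counteract SoxB1 factors in the developing nervous system, and here one rose and one fell. The gene *sox14* (ENSDARG00000070929, chr6:26557979-26559921) stood at 10, 2 and 33 in *hand2* FLD+/? and at 101, 71 and 91 in *hand2* FLD-/- (log2 fold change 3.08, SE 0.76, adjusted p = 0.0143 by limma). Its call was lost without replicate 1 of *hand2* FLD-/- (adjusted p = 0.0543). In contrast, *sox21a* (ENSDARG00000031664, chr6:7414215-7415343) stood at 128, 147 and 219 in *hand2* FLD+/? and at 56, 61 and 48 in *hand2* FLD-/-. It fell by 1.53 on the log2 scale (SE 0.25, adjusted p = 0.0017 by limma), a 2.99-fold difference between the means, and it was called in all 6 fits that left out a library. Its duplicate *sox21b* was at 38, 73 and 39 and at 48, 65 and 58, with overlapping groups.

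Among the SoxC genes, which act in progenitors and in the mesenchyme of the heart and other organs, *sox11a* rose while *sox4a* and *sox12* fell. The gene *sox11a* (ENSDARG00000077811, chr17:35878544-35881841) was at 1108, 1182 and 1163 in *hand2* FLD+/? and at 1772, 1900 and 1860 in *hand2* FLD-/-, a difference many times the spread within either group (log2 fold change 0.68, SE 0.05, adjusted p = 1.4e-05 by limma). The gene *sox4a* (ENSDARG00000004588, chr19:28786149-28789409), which in mouse is needed for the outflow tract of the heart, was at 1330, 1467 and 1478 in *hand2* FLD+/? and at 816, 946 and 818 in *hand2* FLD-/-. It fell by 0.73 on the log2 scale (SE 0.07, adjusted p = 1e-04 by limma). The gene *sox12* (ENSDARG00000025847, chr11:24187610-24191928) was at 73, 133 and 110 and at 47, 43 and 63 (log2 fold change -1.01, SE 0.30, adjusted p = 0.0309 by limma), and it kept its call in only 2 of the 6 fits without a library. Their summed level did not separate the groups. The 5 SoxC genes together came to between 3274 and 3595 in *hand2* FLD+/? and to between 3360 and 3663 in *hand2* FLD-/-.

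SoxD factors, which have no activation domain and act through partners, split as well. The gene *sox6* (ENSDARG00000015536, chr7:27250012-27454645), known in mouse for fibre type in skeletal muscle, for globin switching and, with *sox5*, for cartilage, was at 645, 601 and 507 in *hand2* FLD+/? and at 229, 275 and 213 in *hand2* FLD-/-. The lowest control library was thus well above the highest mutant library, and *sox6* fell by 1.29 on the log2 scale (SE 0.13, adjusted p = 1e-04 by limma), which is 2.44-fold between the means. The gene *sox13* (ENSDARG00000030297, chr11:37768298-37831776) was at 470, 381 and 351 in *hand2* FLD+/? and at 724, 643 and 525 in *hand2* FLD-/- (log2 fold change 0.65, SE 0.14, adjusted p = 0.0079 by limma). Its fold change dropped under the threshold when replicate 3 of *hand2* FLD+/? or replicate 1 of *hand2* FLD-/- was left out. The gene *sox5* was at 1049, 1001 and 955 and at 1067, 831 and 876 (log2 fold change -0.12, 95% confidence interval -0.33 to 0.09).

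Of the SoxE genes, which act in neural crest, cartilage and, for Sox9 in mouse, heart valves, *sox9b* (ENSDARG00000043923, chr3:62521041-62527696) fell. It was at 217, 230 and 114 in *hand2* FLD+/? and at 77, 93 and 52 in *hand2* FLD-/-, where the highest mutant library was close to the lowest control library (log2 fold change -1.30, SE 0.32, adjusted p = 0.0137 by limma). The call was lost without replicate 1 or without replicate 2 of *hand2* FLD+/? (adjusted p = 0.0554 and 0.0581). Its duplicate *sox9a* was at 117, 58 and 81 and at 50, 55 and 42 (log2 fold change -0.74, SE 0.31, adjusted p = 0.11 by limma). The gene *sox10*, which neural crest cells use, was at 204, 194 and 125 and at 209, 124 and 277. The 10 neural crest markers, *sox10* among them, summed to between 3785 and 3913 in *hand2* FLD+/? and to between 2796 and 3091 in *hand2* FLD-/-. Most of that sum was *ednraa* and *twist1a*, and the other 8 summed to 524, 393 and 326 and to 496, 309 and 608, with overlapping groups. Of the 9 tested, *tfap2b* was called higher and *twist1a* lower, 5 had a log2 fold change above 0 (median 0.11), and the part of such cells in the fall of *sox9b* was not tested. The 7 cartilage and notochord markers found summed to between 154 and 374 in *hand2* FLD+/? and to between 1220 and 2115 in *hand2* FLD-/-. Of these 7, *acana* (means 26.7 and 155) and *tbxta* (means 46.3 and 806) were called higher and 0 lower, and 5 had a log2 fold change above 0. Their part in the values of *sox9b* was not tested either. The SoxF gene *sox17* and its relative *sox32*, both known for endoderm, were at 29 or less in every library of the mutant experiment.

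Within the Klf activator group, *klf2a* rose and *klf6a* fell. The gene *klf2a* (ENSDARG00000042667, chr22:15898221-15900919), which responds to blood flow in endothelial cells and is used in forming the zebrafish heart valve, was at 108, 86 and 77 in *hand2* FLD+/? and at 237, 201 and 156 in *hand2* FLD-/-. All 3 mutant libraries were higher than all 3 control libraries (log2 fold change 1.12, SE 0.22, adjusted p = 0.0042 by limma), with means 2.19-fold apart. Endothelial markers moved with it. The 10 listed endothelial genes summed to between 1053 and 1343 in *hand2* FLD+/? and to between 4554 and 4834 in *hand2* FLD-/-, and 8 of the 9 tested were called higher, *cdh5*, *kdrl*, *tie1* and *tek* among them. None of the 10 was at 0 in all libraries, and the part of endothelial RNA in the rise of *klf2a* was not tested. Its duplicate *klf2b* was at 73, 97 and 108 and at 252, 66 and 144, with mutant libraries on both sides of the controls.

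The gene *klf6a* (ENSDARG00000029072, chr24:4141484-4148915), whose zebrafish product is known from the growth of liver and gut, was at 1882, 1811 and 1697 in *hand2* FLD+/? and at 903, 980 and 1024 in *hand2* FLD-/-. It fell by 0.89 on the log2 scale (SE 0.06, adjusted p = 1.2e-05 by limma), a 1.85-fold difference between the means. The cardiomyocyte list fell in part as well, with *gata4*, *myh6*, *tbx5a* and *ttn.2* called lower, and its summed level came to between 29945 and 33010 in *hand2* FLD+/? and to between 18977 and 20173 in *hand2* FLD-/-. Most of that sum was *ttn.2*, at means of 18152 and 11207, and *myh6* was at means of 3755 and 726. By contrast, *nkx2.5* was at means of 1733 and 1710 (log2 fold change -0.02, adjusted p = 0.78 by limma). The gene *myl7*, whose promoter drives the reporter, was at 1984, 2024 and 2025 and at 1627, 1681 and 1801 (log2 fold change -0.24, adjusted p = 0.0041 by limma), and 0 of the 10 tested rows of the list had a log2 fold change above 0. The part of the share of cardiomyocytes in the falls of *klf6a*, *sox4a* and *sox6* was not tested. The gene *klf7b*, of a family known from neurons, reached an adjusted p of 0.0016 by limma with a fold under 1.5, at 1020, 1136 and 1178 and at 1555, 1696 and 1412 (log2 fold change 0.48, SE 0.08). The other tested genes of this group, *klf2b*, *klf4*, *klf5l*, *klf6b*, *klf7a* and *klf17*, had adjusted p values of 0.117 or more.

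Of the 4 Klf genes that recruit CtBP, *klf3* rose. The gene *klf3* (ENSDARG00000015495, chr1:18594146-18615063) was at 223, 237 and 201 in *hand2* FLD+/? and at 311, 372 and 319 in *hand2* FLD-/-, with no overlap (log2 fold change 0.60, SE 0.12, adjusted p = 0.0063 by limma). This fold change lay just past the threshold and dropped under it without replicate 3 of *hand2* FLD+/? or replicate 2 of *hand2* FLD-/-. The gene *klf8* was at 654, 672 and 606 and at 655, 628 and 694 (95% confidence interval of the log2 fold change -0.14 to 0.20), and *klf12a* and *klf12b* were not called. Of the corepressors themselves, *ctbp2a* was called lower (log2 fold change -0.99, means 1108 and 558) and *ctbp1* was at means of 2825 and 2837.

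In the group that binds Sin3, together with *klf15*, only *klf15* was called. The gene *klf15* (ENSDARG00000091127, chr23:35187683-35195908), known in the mouse heart as a brake on hypertrophy and a regulator of metabolism, was at 106, 76 and 106 in *hand2* FLD+/? and at 155, 154 and 148 in *hand2* FLD-/- (log2 fold change 0.68, SE 0.20, adjusted p = 0.0287 by limma). It kept the call in only 2 of 6 fits without a library. The gene *klf11a* passed the adjusted p with a fold under 1.5, at 399, 364 and 390 and at 514, 551 and 556 (log2 fold change 0.49, SE 0.08, adjusted p = 0.0022 by limma). Its duplicate *klf11b* had the highest mean of the group and was at 1184, 1156 and 1097 and at 952, 1026 and 1090 (log2 fold change -0.17, SE 0.06, adjusted p = 0.0864 by limma). The genes *klf9*, a target of glucocorticoid signalling, and *klf13*, which in Xenopus acts with Gata4 in the heart, were at 44 or less in every library. Of these, *klf9* was at 11, 1 and 5 in *hand2* FLD+/? and at 29, 44 and 10 in *hand2* FLD-/-, with overlapping groups. Its log2 fold change was 2.23 (SE 0.83, adjusted p = 0.073 by limma), and it was called in 2 of the 6 fits without a library.

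**Figure D2:**
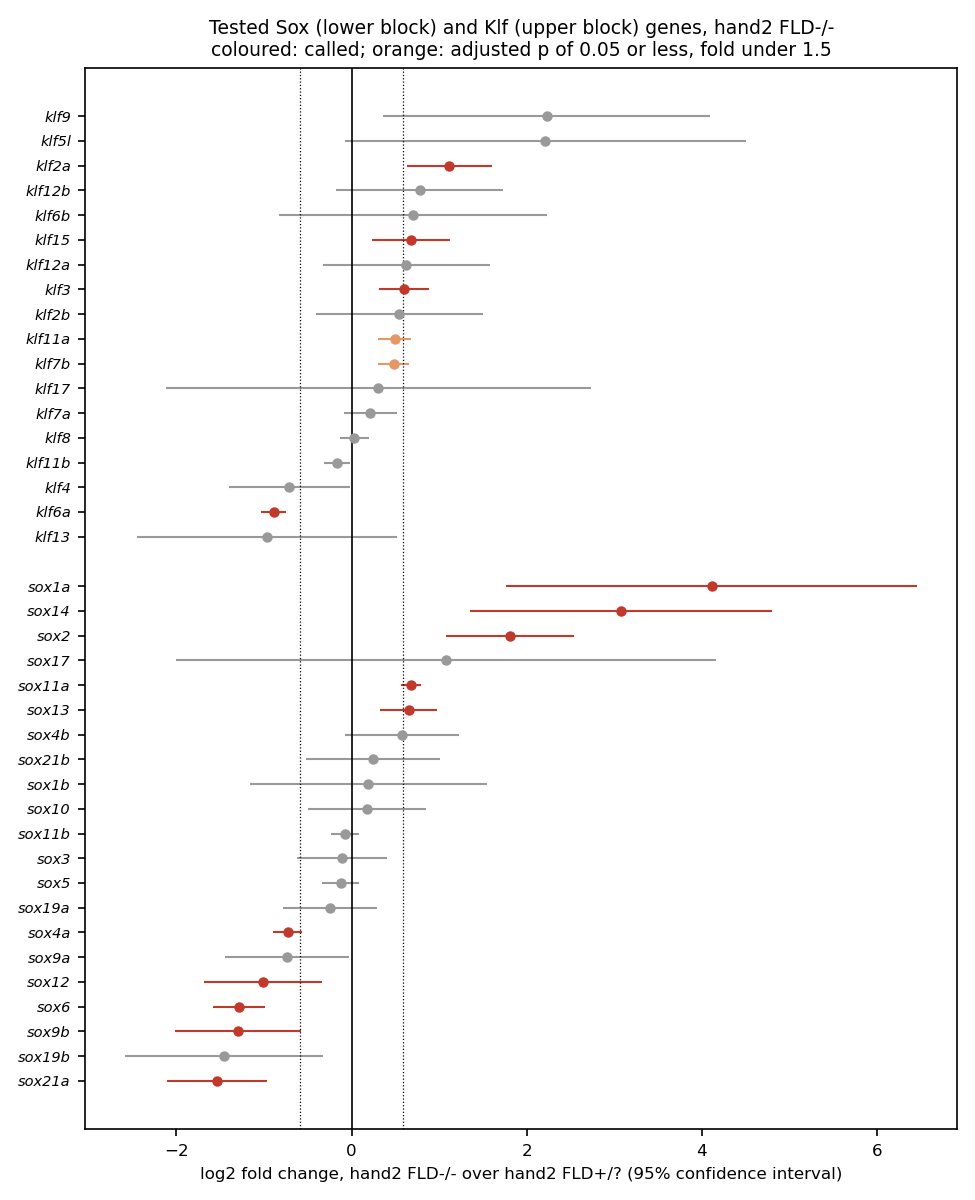
Log2 fold change of *hand2* FLD-/- over *hand2* FLD+/? (horizontal axis) with its 95% confidence interval for the 39 tested members, 21 Sox genes below and 18 Klf genes above. Red marks the 14 called genes and orange *klf7b* and *klf11a*, and the dotted lines stand at a 1.5-fold change in either direction. The widest intervals belong to genes with a library at or near 0, such as *sox17*, *klf17* and *sox1a*.

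Not every call was equally firm. All of *sox2*, *sox6*, *sox21a* and *klf2a* kept their call in each of the 6 fits that left out a library and under each alternative setting tried. The calls of *sox4a*, *sox11a* and *klf6a* were lost only where a fold of 2 was asked for. The other 7 called genes lost their call in at least 1 fit without a library. Leaving out replicate 2 of *hand2* FLD+/?, the control library with the most epidermal marker RNA, lost *sox12*, *klf15* and *sox9b* (adjusted p = 0.12, 0.0865 and 0.0581 by limma). In that fit *klf5l* was called higher (adjusted p = 0.0319 by limma). Without replicate 2 of *hand2* FLD-/-, the mutant library with the most *hand2*, 12 members were called, and without replicate 1 of *hand2* FLD-/- there were 5 called higher in place of 8. Of the 25 tested members that were not called, 5 had a 95% confidence interval that lay within a 1.5-fold change in either direction, namely *sox5*, *sox11b*, *klf7a*, *klf8* and *klf11b*. For the other 20, these libraries do not set so narrow a limit.

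Zebrafish kept many Sox and Klf genes as a and b copies from an ancient genome duplication, and 11 such pairs were tested in both experiments. In the mutants, 7 pairs had exactly 1 called copy, no pair had both copies called, and 4 pairs (*klf7*, *klf11*, *klf12* and *sox19*) had none. The same counts over the pairs of all genes are not given here, so that these do not set Sox and Klf apart from other pairs. Since a call of 1 copy alone does not show that the copies differ, the log2 ratio of copy a to copy b, taken as log2(value + 1) of each, was compared within each library. For *sox11* this ratio was 0.62, 0.61 and 0.62 in *hand2* FLD+/? and 1.41, 1.39 and 1.31 in *hand2* FLD-/-, so that it separated the groups with little spread. For *sox4* it was 5.02, 5.23 and 5.32 and 3.74, 4.27 and 3.63. Here the ratio was lower in every mutant library. For *sox21* it was 1.73, 1.00 and 2.46 and 0.22, -0.09 and -0.27, and for *klf11*, where no copy was called, it was -1.57, -1.66 and -1.49 and -0.89, -0.90 and -0.97. Mutant and control ratios stood apart in 8 of 11 pairs, against 44.3% of the 1900 tested pairs of all genes whose symbols differ only in a final a or b, and each exact two-sided permutation test gave p = 0.1, the smallest that 3 libraries against 3 allow, and the ratio overlapped for *sox9*, *klf2* and *klf12*. In the overexpression experiment, the ratio separated the groups for 2 of the 11 pairs, *klf7* and *klf11*, against 25.6% of 1691 such pairs of all genes. As reads that fit several places were left out of the counts, copies of similar sequence are less certain than other genes.

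**Figure D3:**
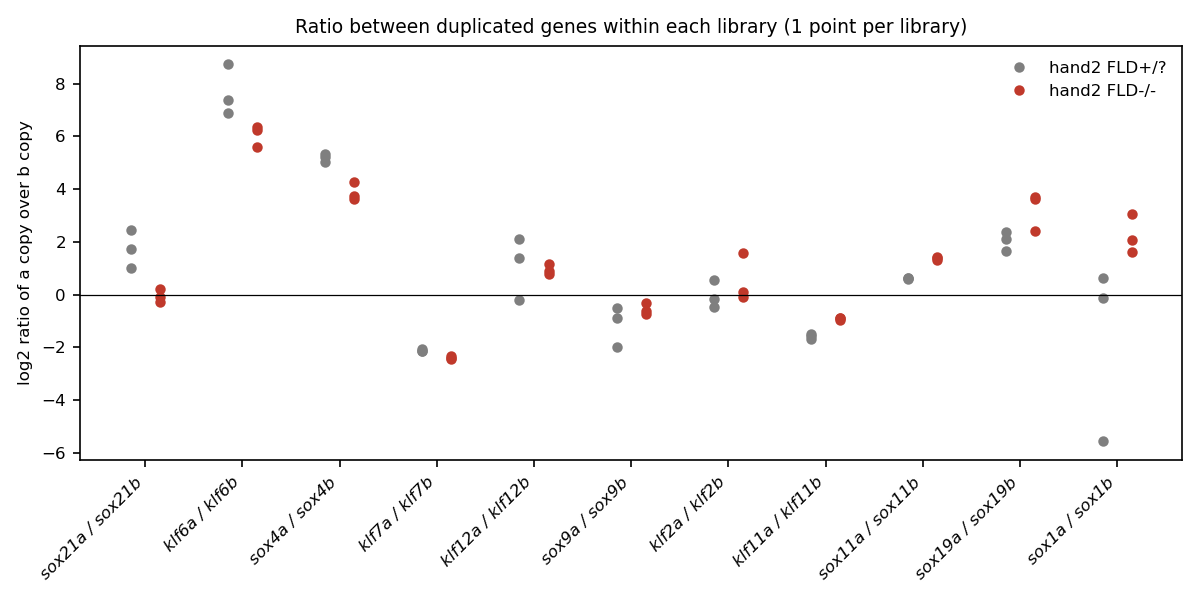
Log2 ratio of the a copy to the b copy of 11 duplicated Sox and Klf genes (vertical axis) in each of the 3 *hand2* FLD+/? (grey) and 3 *hand2* FLD-/- (red) libraries, 1 point per library, ordered by the difference between the group means. The groups separate in 8 of the 11 pairs and overlap for *klf12*, *sox9* and *klf2*, and the low control point of *sox1* is the library in which *sox1a* was at 0.

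In *hand2* OE cardiomyocytes, *klf2a* and *klf3* rose and 0 members were called lower by limma, 4 of them having an unadjusted p under 0.05 and 0 being called without the trend. These 2 are 5.41% of the 37 tested members, where 4.1% of all 16510 tested genes were called, 2.53% higher and 1.57% lower, so that the share of members called was near that of all genes. The 20 tested Sox genes held 0 calls by limma, 6 with an unadjusted p under 0.05 (4 higher and 2 lower) and 0 in limma without the trend. Groups did not overlap for 11 of the 37 members, against 26.1% of all tested genes, and 4 members had an adjusted p of 0.05 or less, against 6.63%. The median log2 fold change was 0.00757 over the members and 0.00148 over all tested genes. The median of its absolute value was 0.46 over the members and 0.30 over all tested genes. The members *klf1*, *klf17*, *sox8b* and *sox14* were below the filter, with no value over 15 in any library.

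The gene *klf2a* was at 99, 72 and 76 in WT and at 202, 154 and 225 in *hand2* OE. Every *hand2* OE library was higher than every WT library (log2 fold change 1.22, SE 0.24, adjusted p = 0.0196 by limma), with means 2.35-fold apart. The call held in 2 of the 6 fits without a library and was lost in the other 4, by limma with an adjusted p of 0.0626 or 0.0597 when the second or the third WT library was left out and of 0.0631 or 0.0793 when the first or the third *hand2* OE library was. It was kept without replicate 2 of *hand2* OE, the library that stood apart, where the log2 fold change was 1.38 (adjusted p = 0.0344 by limma). The 10 endothelial markers summed to 574, 610 and 518 in WT and to 505, 962 and 543 in *hand2* OE, and 0 of the 10 were called by limma, 0 had an unadjusted p under 0.05 and 0 were called without the trend. Of the 10, 6 had a log2 fold change above 0 (median 0.73), with wide intervals, such as -0.39 to 5.85 for *kdrl*. Without *egfl7* and *cdh5*, the most abundant, the other 8 summed to 192, 194 and 151 in WT and to 201, 690 and 185 in *hand2* OE, of which 690 was in replicate 2. The part of endothelial RNA in the rise of *klf2a* was not tested here either.

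The gene *klf3* was at 47, 29 and 42 in WT and at 91, 182 and 89 in *hand2* OE, of which 182 was in replicate 2. The groups did not overlap (log2 fold change 1.54, SE 0.39, adjusted p = 0.0497 by limma), but the call was at the threshold and was lost in all 6 fits without a library. Without *hand2* OE replicate 2, its adjusted p was 0.144 by limma, and the 2 remaining libraries, at 91 and 89, were still above the WT values. Below the fold threshold, *sox4a* was at 597, 727 and 638 in WT and at 922, 893 and 909 in *hand2* OE (log2 fold change 0.48, SE 0.08, adjusted p = 0.0139 by limma). Likewise, *klf6a* was at 861, 642 and 808 and at 1057, 1031 and 1035 (log2 fold change 0.44, SE 0.10, adjusted p = 0.0392 by limma). In both genes, each *hand2* OE library lay above each WT library and the *hand2* OE libraries lay close together. When a library was left out, the adjusted p by limma reached 0.0521 for *sox4a* and 0.11 for *klf6a*. Among the alternative settings it reached 0.131 and 0.213. Both genes fell in *hand2* FLD-/-.

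**Figure D4:**
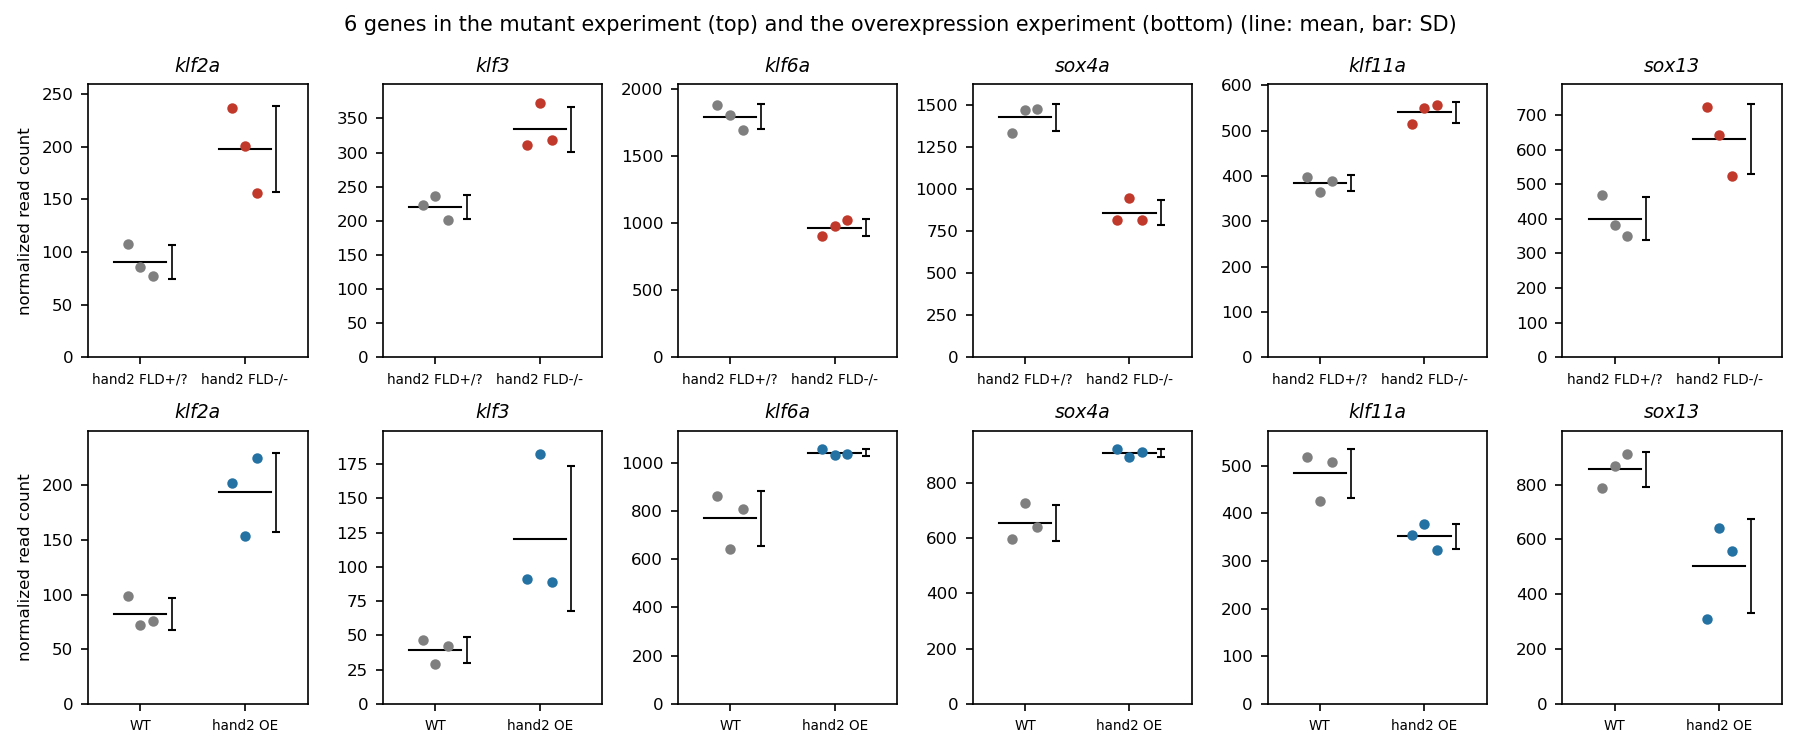
Normalized read count (vertical axes, linear from 0, each panel on its own scale) of *klf2a*, *klf3*, *klf6a*, *sox4a*, *klf11a* and *sox13* in the mutant experiment (top, *hand2* FLD+/? grey, *hand2* FLD-/- red) and in the overexpression experiment (bottom, WT grey, *hand2* OE blue), with 1 point per library, the mean as a line and the SD of 3 libraries as a bar. Both *klf2a* and *klf3* are higher in *hand2* FLD-/- and in *hand2* OE than in their own controls, and *klf6a* and *sox4a* are lower in *hand2* FLD-/- and higher in *hand2* OE. For *klf11a*, *sox13*, *klf6a* and *sox4a* the *hand2* OE change was not called.

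Several uncalled members had groups that did not overlap in *hand2* OE. The gene *sox13* was at 788, 868 and 911 in WT and at 310, 643 and 557 in *hand2* OE (log2 fold change -0.83, SE 0.23, adjusted p = 0.0717 by limma). The gene *klf7a* was at 429, 385 and 354 and at 220, 313 and 180 (log2 fold change -0.74, SE 0.20, adjusted p = 0.0626 by limma), and without *hand2* OE replicate 2 it was called lower (adjusted p = 0.0266). The gene *klf11a* was at 518, 425 and 508 and at 354, 377 and 323 (log2 fold change -0.46, SE 0.12, adjusted p = 0.0551 by limma). None of these 3 passed the test with all libraries. The gene *sox2* was at 124, 26 and 124 in WT and at 143, 317 and 188 in *hand2* OE (log2 fold change 1.45, adjusted p = 0.192 by limma), and *sox10* was at 0, 35 and 19 and at 65, 150 and 41 (log2 fold change 3.06, adjusted p = 0.196 by limma). The gene *klf5l* was listed at 0 in all WT libraries and at 2, 52 and 18 in *hand2* OE (adjusted p = 0.129 by limma).

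The highest *hand2* OE value of a member was often that of replicate 2. Over the 37 tested members, this library was the highest of its group for 24, against 8 for replicate 1 and 5 for replicate 3. The same counts over all tested genes are not given here, so that these do not set the members apart from other genes. It held the highest *hand2* OE value of *sox2*, *sox3*, *sox10*, *sox19a*, *sox9a*, *klf3* and *klf5l*, and its summed neural and epidermal markers were given above. The part of cells of other types in these values was not tested.

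**Figure D5:**
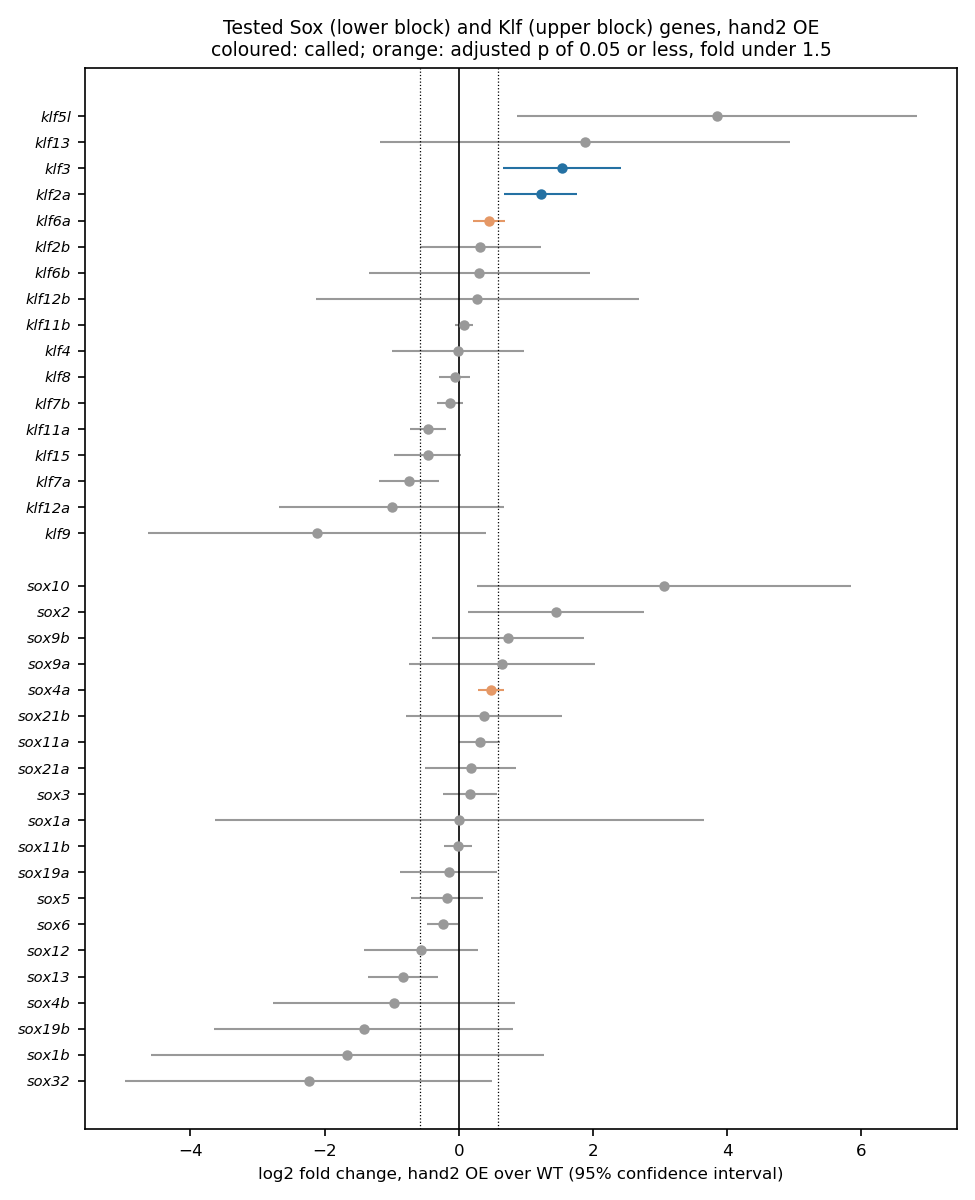
Log2 fold change of *hand2* OE over WT (horizontal axis) with its 95% confidence interval for the 37 tested members, 20 Sox genes below and 17 Klf genes above. Blue marks *klf2a* and *klf3*, orange *sox4a* and *klf6a*, and the dotted lines stand at a 1.5-fold change in either direction.

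The 2 experiments shared no library and were normalized separately, so that their values are set side by side without a test. Of the 36 members tested in both, 2 rose in both (*klf2a* and *klf3*), 5 rose in *hand2* FLD-/- and were not called in *hand2* OE, 6 fell in *hand2* FLD-/- and were not called in *hand2* OE, and 23 were called in neither. No member was called in opposite directions, where only 2 members were called in *hand2* OE at all. The same counts over all genes tested in both experiments are not given here. The gene *sox6*, which fell by 1.29 on the log2 scale in the mutants, was at 810, 782 and 883 in WT and at 625, 796 and 679 in *hand2* OE (log2 fold change -0.24, 95% confidence interval -0.47 to -0.02, adjusted p = 0.21 by limma). The gene *sox11a*, which rose in the mutants, was at 545, 563 and 641 and at 699, 887 and 608, with overlapping groups. Whether a member responded differently in the 2 experiments was not tested.

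Among related genes, the Sp factors, zinc finger proteins that bind much the same sequences as Klf factors, held 1 call among 10 tested in the mutants. That gene was *sp9*, a factor of the limb bud and forebrain, at 3, 36 and 12 in *hand2* FLD+/? and at 252, 368 and 282 in *hand2* FLD-/- (log2 fold change 4.58, SE 0.67, adjusted p = 0.000901 by limma). Of 9 Sp genes tested in *hand2* OE, 0 were called by limma with or without the trend, and 0 had an unadjusted p under 0.05. Among 19 tested partners and cofactors, 5 were called in the mutants, and 3 in limma without the trend, where *pou3f1* and *pou5f3* were lost (adjusted p = 0.0548 and 0.0539). These were the POU factors *pou3f1*, *pou3f2b*, *pou3f3a* and *pou5f3*, which can bind beside Sox factors and were higher, and *ctbp2a*, which was lower. The call of *pou5f3* held in only 2 of the 6 fits without a library. For example, *pou3f3a* was at 73, 77 and 54 in *hand2* FLD+/? and at 299, 353 and 376 in *hand2* FLD-/- (log2 fold change 2.33, SE 0.19, adjusted p = 2.9e-05 by limma). In *hand2* OE, 0 of 17 partners and cofactors were called by limma with or without the trend, and 6 had an unadjusted p under 0.05. One of these was *ctbp2a*, at 447, 533 and 502 in WT and at 627, 656 and 666 in *hand2* OE, with a fold under 1.5 (log2 fold change 0.40, SE 0.09, adjusted p = 0.0378 by limma). In the 6 fits without a library, its adjusted p by limma lay between 0.0548 and 0.118.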

How the data were processed

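Messenger RNA of sorted cardiomyocytes at 20 hpf was measured in 12 libraries (SMART-Seq HT, single-end reads). The authors trimmed reads with Trimmomatic 0.39, aligned them to danRer11 with STAR 2.7.10a, and counted exonic reads per gene with featureCounts 2.0.2, leaving out reads that fit several genes or places. Their comparison of groups used DESeq2 1.30.1. The sources do not name the use of strand, so that genes with an overlapping or antisense partner, such as *sox4a* and *sox11b*, are less certain. The deposited values are scores: reads per gene that the authors scaled, library by library and separately for each experiment, and then rounded, so that whole reads were not recovered and no count model was used. Symbols, identifiers and positions (danRer11) are those of the deposited tables.

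Values were analysed per experiment in R 4.3.3 with limma 3.58.1 (lmFit, eBayes with a trend) on log2(value + 1), keeping genes whose mean reached 5. Fold changes are on this scale, where a library at or near 0 can move that of a low gene either way from the ratio of the means. Ratios between copies were compared with an exact permutation test. The steps were tested on simulated data with the same spread setting for all genes. That setting is narrower than the spread of genes with a library at or near 0, such as *sox1a* and *sox14*, so that it does not bear on their calls. Alternatives were other pseudocounts, filters, scalings and fold thresholds, limma without the trend, the replicate number as a block, and each library left out in turn. Genes called in either experiment are given in every library, and those with an adjusted p of 0.05 or less under the fold threshold are named with their values. Of the others, those with the highest mean of a family were examples, and *sox19b*, *sox9a*, *sox10*, *sox21b*, *klf2b*, *klf9*, *klf13*, *klf5l* and the genes near the threshold in *hand2* OE were named after their values were seen. The members, gene lists and tests were chosen with earlier results of these data known.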

Additional observations from a re-analysis of the deposited data

How the results depend on the processing

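In the mutant experiment, 14 members were called (8 higher, 6 lower). This became 9 (5 higher) in limma without the trend, which lost *sox1a*, *sox9b*, *sox12*, *sox13* and *sox14*, and 8 (4 higher) at a fold threshold of 2. Leaving out each library in turn gave 10 to 14 calls, 5 to 9 of them higher and 4 to 7 lower, with the 5 reached without replicate 1 of *hand2* FLD-/-. In the overexpression experiment, 2 members were called (both higher). This became 1 with a pseudocount of 0.5, without a filter or with equal upper quartiles, 0 in limma without the trend and 4 without a fold threshold. Leaving out a library gave 0 to 2 calls, 0 to 1 of them higher and 0 to 1 lower, with 0 calls when the library left out was the second or the third of WT, or the first or the third of *hand2* OE. The cause of these changes was not tested. No member called or past the adjusted p alone changed direction, while the log2 fold changes of uncalled members near 0 did when a library was left out, as for *sox3* in both experiments (-0.41 to 0.04 in the mutants, -0.07 to 0.32 in *hand2* OE). With the replicate block, 13 members were called in the mutants (7 higher, 6 lower) and 2 in *hand2* OE (1 higher, 1 lower, the latter *sox13*). Deviations of libraries with the same number correlated by 0.02, 0.03 and 0.02 in the mutants and by -0.02, -0.10 and -0.04 in *hand2* OE. In the mutants each library correlated best with its own number. Such small values do not tell whether libraries of the same number were made together, and the main fits treat them as unpaired. With 3 libraries a group, 20 uncalled members of the mutant experiment have intervals that reach a 1.5-fold change.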
